A study of Mus musculus with 5 samples.

Results

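Interferon-stimulated genes are the transcripts that cells switch on when an interferon binds its receptor, and 36 of them were followed here in inflamed mouse colon. They were taken by gene symbol from a written list, and all 36 were found among the 55471 genes of the table. The list holds 4 transcription factors, 8 effectors chosen as typical of the type I interferon response (Isg15, Ifit1, Ifit2, Ifit3, Mx1, Oas1a, Oas2 and Oasl2) and 8 GTPases chosen as typical of the response to interferon gamma (Gbp2, Gbp3, Gbp5, Gbp7, Igtp, Iigp1, Irgm1 and Irgm2). It also holds 4 sensors of foreign nucleic acid, 2 chemokines and 10 further effectors and regulators.

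Type I interferons bind the Ifnar1 and Ifnar2 receptor, whose kinases Jak1 and Tyk2 activate Stat2. Stat2 enters a complex with Irf9 that binds a DNA element called the interferon-stimulated response element. Interferon gamma binds Ifngr1 and Ifngr2, acts through Jak1 and Jak2, and is read out at a different element, the gamma-activated site, in genes such as Irf1. The responses share many targets, and in the gut both arm the epithelium and macrophages against viruses and intracellular microbes.

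Colon was collected from C57BL/6 males aged 11 weeks, 3 days after they had been given TNBS, a hapten (trinitrobenzene sulfonic acid) used to provoke colitis. The treated group (3 libraries) received propyzamide, a herbicide that disrupts microtubules in plants, and the control group (2 libraries) received vehicle, so the design holds a single comparison. All 5 libraries were from TNBS colon, the dose is not given in the sources used here, and colon without TNBS was not analysed here. Since the labels do not state that every library came from its own animal, the p-values reflect only the spread among these libraries, which may be technical.

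Total estimated counts ran from 1573592 to 2706840 per library, of which 823540 to 1328793 lay outside mitochondrial genes and loci that resemble ribosomal RNA. Values are given in CPM, read counts relative to the scaled library size, and 1 count was worth 0.340 to 0.609 CPM. Markers of colon epithelium were present in all libraries, with 10 of 10 tested and a summed level of 5554 and 7523 CPM in vehicle and 8250 to 12349 CPM in propyzamide. Markers of smooth muscle summed to 494 CPM in vehicle replicate 1, 3269 CPM in vehicle replicate 2 and 5633 to 9310 CPM in propyzamide. Each group carried its own second index sequence and shared 0 with the other, so that index and treatment cannot be told apart. In bulk tissue, fewer cells of a type and less RNA per cell cannot be told apart.

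The promoters were searched for letters that match the core of either element. Stretches of 8 genes with a match are printed here as examples of the type I and the gamma arm. RefSeq promoter windows (GRCm38.p6, from 250 bases before to 50 after the start of transcription) were found for 29 of the 36 genes. The capitals mark matches on either strand to GAAA, any 2 bases and GAAA, the core of the interferon-stimulated response element (TTTC, any 2 bases and TTTC on the other strand), or to TTCNNNGAA, the core of the gamma-activated site. Each sequence is the strand of its gene, 5′ to 3′. The first 3 are type I effectors, the next 4 are GTPases and the last is the transcription factor Irf1.
Isg15 (chr4:156200855-156200916, minus strand): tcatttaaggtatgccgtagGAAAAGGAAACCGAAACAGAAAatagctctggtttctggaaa
Ifit1 (chr19:34640765-34640833, plus strand): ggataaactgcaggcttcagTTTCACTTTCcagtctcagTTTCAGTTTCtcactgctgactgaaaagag
Oas1a (chr5:120907526-120907565, minus strand): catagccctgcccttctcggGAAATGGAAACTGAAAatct
Gbp2 (chr3:142620584-142620633, plus strand): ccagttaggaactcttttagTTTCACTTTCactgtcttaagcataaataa
Irgm1 (chr11:48871421-48871470, minus strand): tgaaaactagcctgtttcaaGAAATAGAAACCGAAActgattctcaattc
Igtp (chr11:58199491-58199551, plus strand): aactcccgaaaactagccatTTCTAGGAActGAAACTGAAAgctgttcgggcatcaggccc
Irgm2 (chr11:58214882-58214942, plus strand): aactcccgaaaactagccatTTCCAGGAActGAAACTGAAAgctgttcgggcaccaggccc
Irf1 (chr11:53769904-53769952, plus strand): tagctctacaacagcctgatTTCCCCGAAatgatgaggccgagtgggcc

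The response-element core was not limited to the type I arm. It was present in 7 of 7 GTPase genes with a window and in 4 of 6 type I effector genes, counting a gene with at least 1 matching window. Over all 29 genes, 20 of 34 windows (58.8%) held it, against 3.44% of all 32851 windows in the table. The gamma-site core was in 4 of 7 GTPase genes, 2 of 6 type I effector genes and Irf1, in all 10 of 34 windows (29.4%) against 8.30% of all windows. The cores overlapped each other in 1 window, that of Bst2. Igtp and Irgm2, neighbours on chromosome 11, carry a gamma-site core followed by a response-element core at the same spacing. A match describes letters in this window and does not show that a factor binds.

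In the comparison of propyzamide with vehicle, 0 of the 36 genes rose and 0 fell. The test was edgeR's quasi-likelihood test over 12024 genes with a Benjamini-Hochberg adjusted p under 0.05, and 25 of the 36 passed its filter on low counts. Over all tested genes, 0.690% were called higher and 1.21% lower, 1.90% in either direction. The fold changes of the 25 tested genes were more often negative than positive (19 against 6), with a median of -0.27 on the log2 scale. Over all tested genes the median was -0.02 and 50.9% of fold changes were negative. This lean depended on single libraries: without propyzamide replicate 1, 12 of 22 were negative (median -0.09), and without vehicle replicate 1, 15 of 25 (median -0.10). Without propyzamide replicate 3 the median was -0.51. With DESeq2 and with no filter, the median of the 36 genes (-0.52 and -0.43) lay above that of all genes (-1.26 and -1.14). Both settings kept every gene with a count, 37309 with no filter against 12024 here. Those medians of all genes therefore take in many genes with very few counts, and are not a like comparison. The smallest adjusted p was 0.149 (edgeR), for Ddx58.

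The precision behind that count was limited. Standard errors ran from 0.35 for Irf1 to 0.998 for Ifit2 on the log2 scale, with a median of 0.56. On simulated counts with the means and library sizes of these 5 libraries, the test over all 12024 genes recovered 9% of genes changed 2-fold, 49.3% of those changed 4-fold and 74.2% of those changed 8-fold. The changed genes were drawn at random from all levels, and every gene got the spread typical of its level. The rates therefore need not hold for these 36 genes, many of which were low. At an unadjusted p under 0.05 there were 3 of the 25, Irf9, Ddx58 and Zbp1, against 18.2% of all tested genes. DESeq2 called 0 of the 36.

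**Figure D1:**
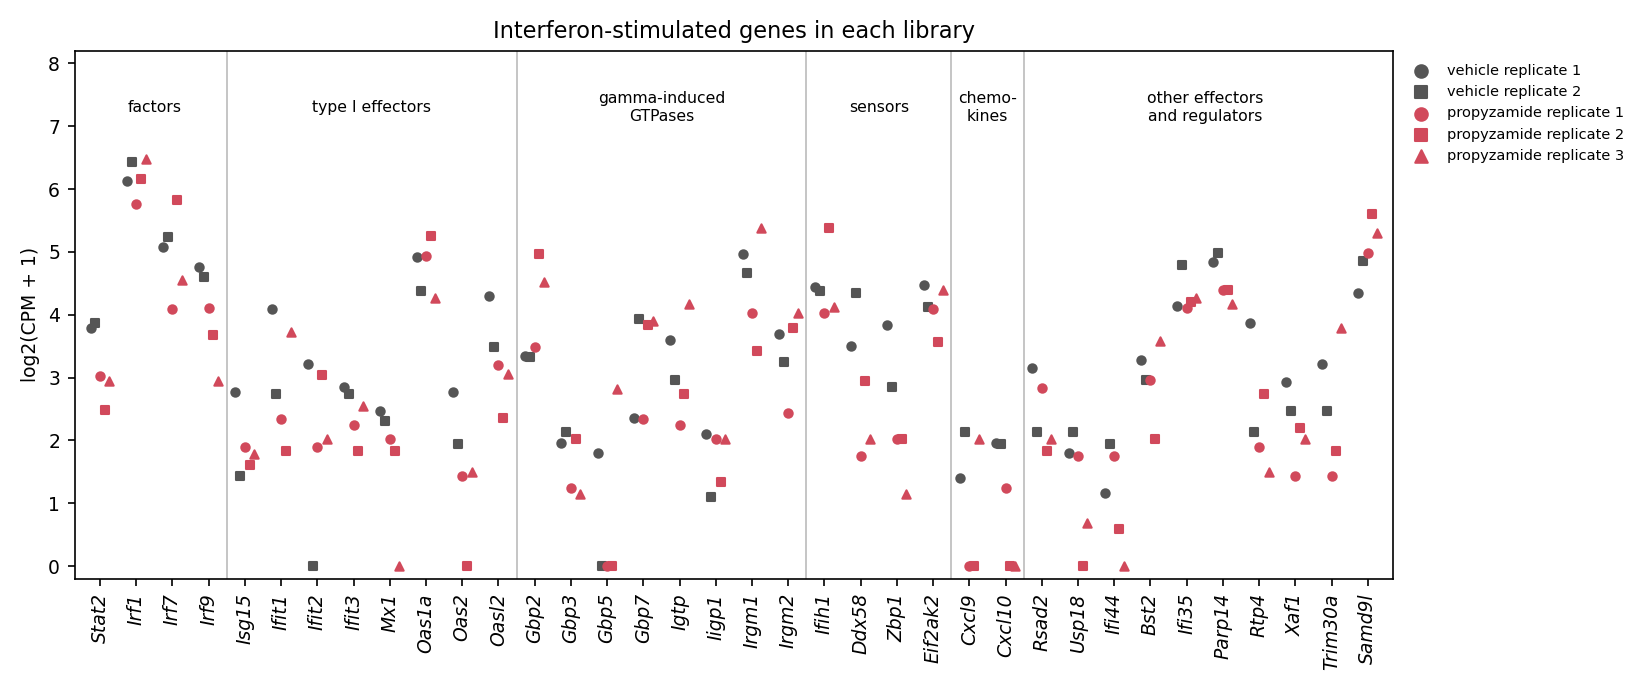
Level of each of the 36 genes in each library as log2(CPM + 1), grouped by role, with vehicle in grey and propyzamide in red and 1 point per library. Irf1 lies highest, between 53.0 and 87.7 CPM, and the groups overlap for 22 of the 36 genes.

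In CPM, the groups did not overlap for 9 of the 25 tested genes. All 3 propyzamide libraries lay below both vehicle libraries for 7 of them (Stat2, Irf9, Ifit3, Oasl2, Ddx58, Zbp1 and Parp14), against 20.8% of all tested genes. They lay above for 2, Gbp2 and Samd9l, against 16.7% of all tested genes. TPM gives transcripts relative to all transcripts of the library, corrected for length. In TPM the groups overlapped for Oasl2, Zbp1, Parp14, Gbp2 and Samd9l. Among the 11 genes that were not tested, Mx1, Oas2, Cxcl10, Usp18 and Xaf1 were lower in every propyzamide library, at no more than 6.62 CPM in any library. The shares above cover tested genes only, so the untested genes have no like comparison. Dropping the filter on low counts moved the centre of the fold changes from -0.02 (12024 genes) to -1.14 (37309 genes). Low genes as a class therefore leaned lower in propyzamide, whether in this list or not. Summed over the 36 genes, levels came to 493 and 458 CPM in vehicle and to 319, 441 and 443 CPM in propyzamide. In TPM the sums were 460 and 180 in vehicle and 176, 173 and 165 in propyzamide, so that vehicle replicate 1 alone stood high. CPM carries a scaling factor, 1.61 for vehicle replicate 1 and 0.797 to 1.10 for the other libraries, and TPM does not.

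Among the transcription factors, Irf9 and Stat2 of the type I complex were lower in each propyzamide library without passing the test. Irf9, the DNA-binding partner of the complex (chromosome 14, 55603571 to 55610030), was at 26.1 and 23.3 CPM in vehicle and 16.3, 11.8 and 6.70 CPM in propyzamide. The lowest vehicle library was above the highest propyzamide library. Its log2 fold change was -1.06 ± 0.46 (SE), with an edgeR adjusted p of 0.248. Irf9 overlaps Rnf31, a protein-coding gene on the same strand, and whether the counting used strand is not given in the sources used here, so reads may be shared between them.

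Stat2, the signal transducer activated by type I receptors (chromosome 10, 128270559 to 128292849), was at 12.8 and 13.6 CPM in vehicle and 7.14, 4.62 and 6.70 CPM in propyzamide. The groups did not overlap, and the log2 fold change was -1.09 ± 0.54 (SE; edgeR adjusted p = 0.315). Irf1, a factor induced by interferon gamma (chromosome 11, 53770014 to 53778374), had the highest level per length of the 36, with a mean of 36.9 TPM. It was at 68.7 and 85.1 CPM in vehicle and 53.0, 70.3 and 87.7 CPM in propyzamide. The ranges overlapped, the log2 fold change was -0.13 ± 0.35 (SE; edgeR adjusted p = 0.892), and its sign turned to 0.08 without vehicle replicate 2. Irf7, which amplifies type I interferon production, spanned 15.97 to 55.9 CPM within propyzamide and 32.7 to 36.9 CPM in vehicle.

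Of the type I effectors, 0 of 5 tested passed the test and 4 of the 5 had negative fold changes. Oasl2, a relative of the oligoadenylate synthetases (chromosome 5, 114896936 to 114912234), was at 18.6 and 10.2 CPM in vehicle and 8.16, 4.11 and 7.31 CPM in propyzamide. The groups did not overlap, and the log2 fold change was -1.14 ± 0.56 (SE; edgeR adjusted p = 0.310), or -0.65 without vehicle replicate 1. Ifit1, which binds viral RNA lacking cap methylation (chromosome 19, 34640871 to 34650009), was at 16.1 and 5.67 CPM in vehicle and 4.08, 2.57 and 12.2 CPM in propyzamide. A high library in each group made the ranges overlap. Its log2 fold change of -0.85 ± 0.74 (SE; edgeR adjusted p = 0.595) became 0.09 without vehicle replicate 1.

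Oas1a, an oligoadenylate synthetase that activates the antiviral nuclease RNase L (chromosome 5, 120896256 to 120907521), had the highest level per length of the type I effectors. It was at 29.4 and 19.9 CPM in vehicle and 29.6, 37.0 and 18.3 CPM in propyzamide, with overlapping ranges. The log2 fold change was 0.20 ± 0.41 (SE; edgeR adjusted p = 0.860) on counts and -0.20 with limma on log2(TPM + 1). Ifit3, which partners Ifit1, lay at 5.67 to 6.20 CPM in vehicle and 2.57 to 4.87 CPM in propyzamide. Ifit2 had 0 counts in vehicle replicate 2 and 20 in vehicle replicate 1, against 5 to 14 counts in propyzamide.

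The untested type I effectors were Isg15, the ubiquitin-like modifier, Mx1, a dynamin-like antiviral GTPase, and Oas2. Isg15 had 14 and 3 counts in vehicle and 8, 4 and 4 in propyzamide, so that vehicle replicate 1 stood above the other libraries. Mx1 had 11 and 7 counts in vehicle and 9, 5 and 0 in propyzamide. Oas2 had 14 and 5 counts in vehicle and 5, 0 and 3 in propyzamide, a ratio of rates of 0.269 whose exact 95% limits for counting error were 0.102 and 0.645.

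Of the GTPases, 0 of 5 tested passed the test, with 3 positive and 2 negative fold changes. Gbp2, a guanylate-binding protein that coats pathogen vacuoles (chromosome 3, 142620602 to 142638008), was at 9.10 and 9.08 CPM in vehicle and 10.2, 30.3 and 21.9 CPM in propyzamide. Propyzamide replicate 1 lay just above vehicle and the other two well above it. The log2 fold change was 1.17 ± 0.54 (SE; edgeR adjusted p = 0.276), and it ran from 0.78 to 1.48 as each library was left out in turn. Irgm1, an immunity-related GTPase that regulates autophagy (chromosome 11, 48861968 to 48871683), was at 30.2 and 24.4 CPM in vehicle and 15.3, 9.75 and 40.8 CPM in propyzamide. In CPM its highest and its lowest library were both in propyzamide, whereas in TPM vehicle replicate 1 was highest, at 24.4 TPM. The log2 fold change was -0.34 ± 0.53 (SE; edgeR adjusted p = 0.8002). It became -1.11 without propyzamide replicate 3 and -0.0052 without propyzamide replicate 2.

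The other tested GTPases varied more within propyzamide than between the groups. Igtp (Irgm3) was at 11.2 and 6.81 CPM in vehicle and 3.74, 5.65 and 17.0 CPM in propyzamide. Irgm2 was at 12.0 and 8.51 CPM in vehicle and 4.42, 12.8 and 15.2 CPM in propyzamide. Igtp and Irgm2 overlap on the same strand in the annotation and can share reads, so that their values are uncertain. Gbp7 was at 4.14 and 14.2 CPM in vehicle and 4.08, 13.3 and 14.0 CPM in propyzamide, low in replicate 1 of each group. Gbp3, Gbp5 and Iigp1 were not tested, and Gbp5 had 6 counts in vehicle replicate 1, 10 in propyzamide replicate 3 and 0 in the other libraries.

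**Figure D2:**
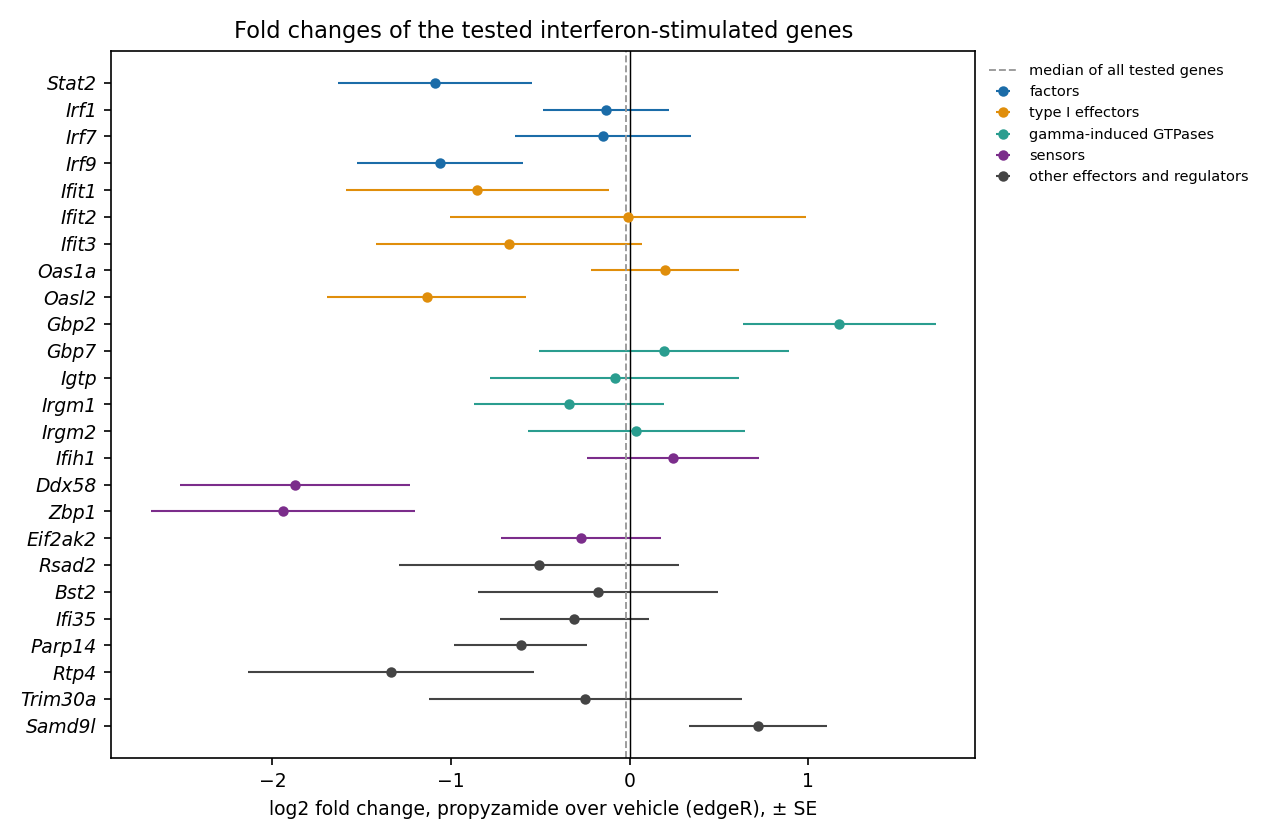
log2 fold change of propyzamide over vehicle for the 25 tested genes from the edgeR fit, with bars of ± 1 SE, coloured by role. The dashed line is the median of all tested genes, -0.02, and the points run from -1.94 for Zbp1 to 1.17 for Gbp2.

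The type I effectors and the GTPases were then set against each other. The median log2 fold change was -0.67 for the 5 tested type I effectors and 0.04 for the 5 tested GTPases, a difference of -0.71. In the libraries, mean log2(CPM + 1) over all 8 type I effectors minus that over all 8 GTPases came to 0.44 and -0.29 in vehicle and to 0.27, -0.55 and -1.14 in propyzamide. The groups overlapped: vehicle replicate 2 lay below propyzamide replicate 1. The mean difference was 0.08 ± 0.52 (SD, n = 2) in vehicle and -0.47 ± 0.71 (SD, n = 3) in propyzamide. The means lay closer together than the SD of 0.65 pooled over both groups, though not than the SD of vehicle, and no test was made of this score.

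Each arm on its own shows which libraries set that difference. The type I effectors summed to 94.7 and 49.9 CPM in vehicle and to 55.7, 58.0 and 49.9 CPM in propyzamide, so that vehicle replicate 1 alone was high. The GTPases summed to 75.3 and 67.5 CPM in vehicle and to 42.1, 76.5 and 119 CPM in propyzamide. In CPM the lowest and the highest library were thus both in propyzamide. In TPM the GTPases summed to 58.0 and 20.1 in vehicle and to 20.2, 23.2 and 38.7 in propyzamide. By that measure the lowest and the highest library were both in vehicle. Without vehicle replicate 1 the median of the type I effectors turned to 0.09 and the difference of medians shrank to -0.21. Of the counts that fell on either list, type I effectors took 55.7% and 42.5% in vehicle and 56.9%, 43.1% and 29.5% in propyzamide. Exact 95% binomial intervals, which cover counting error only, were 50.8% to 60.6%, 35.7% to 49.6%, 51.0% to 62.7%, 37.0% to 49.4% and 24.2% to 35.2% in that order. The interval of propyzamide replicate 3 lay below those of the other 4 libraries, with that of vehicle replicate 2 beginning just above it.

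**Figure D3:**
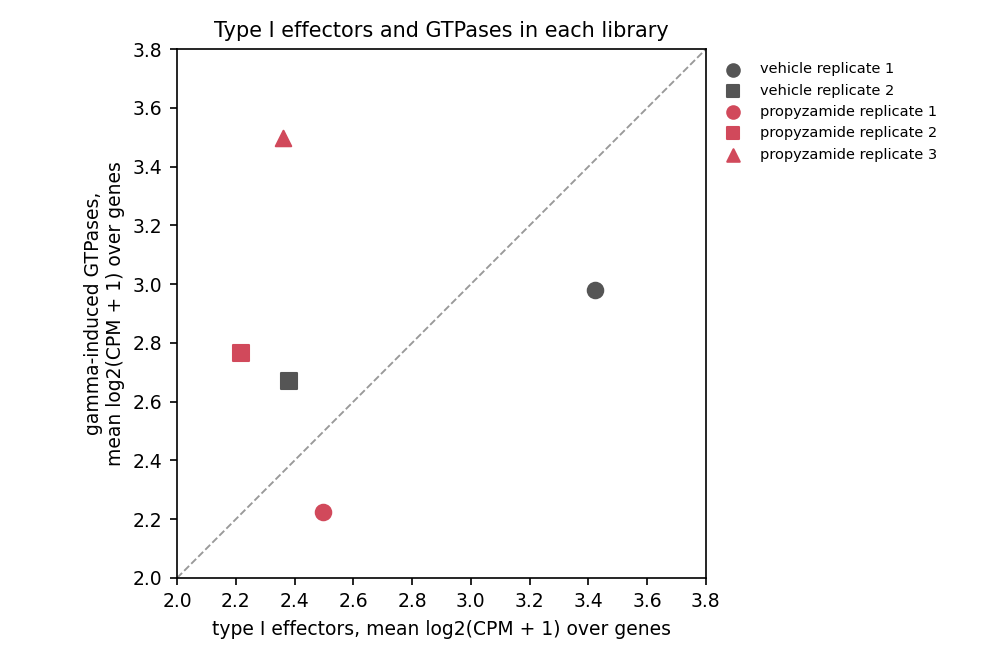
Mean log2(CPM + 1) over the 8 type I effectors (x axis) and over the 8 gamma-induced GTPases (y axis), 1 point per library, with a dashed line where they are equal. Vehicle replicate 1 and propyzamide replicate 1 lie on the type I side and the other 3 libraries on the GTPase side.

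The smallest p-values among the 36 belonged to 2 of the nucleic acid sensors. Ddx58, which encodes RIG-I, the cytosolic sensor of viral RNA ends (chromosome 4, 40203773 to 40239828), was at 10.3 and 19.3 CPM in vehicle and 2.38, 6.67 and 3.04 CPM in propyzamide. All 3 propyzamide libraries lay below both vehicle libraries. The log2 fold change was -1.87 ± 0.65 (SE; edgeR adjusted p = 0.149). It ran from -2.45 to -1.31 as each library was left out, and was -1.97 after subtraction of background counts. Limma on log2(TPM + 1) called Ddx58 lower (log2 change -2.26, adjusted p = 0.0445), where the median of all genes moved to -0.39. It was the only 1 of the 36 called under any of 15 alternatives.

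Zbp1, a sensor of left-handed nucleic acid that triggers cell death (chromosome 2, 173206612 to 173218923), was at 13.2 and 6.24 CPM in vehicle and 3.06, 3.08 and 1.22 CPM in propyzamide. The groups did not overlap, and the log2 fold change was -1.94 ± 0.74 (SE; edgeR adjusted p = 0.187). Ifih1, which encodes the long-RNA sensor MDA5, related to RIG-I, was not lower in every propyzamide library. It was at 20.7 and 19.9 CPM in vehicle and 15.3, 40.5 and 16.4 CPM in propyzamide. Eif2ak2, the kinase PKR that halts translation, lay at 16.5 and 21.1 CPM in vehicle and 10.8 to 20.1 CPM in propyzamide.

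The chemokines Cxcl9 and Cxcl10 draw T cells through the receptor Cxcr3, and both were too low to test. Cxcl10 (chromosome 5, 92346638 to 92348889) had 7 and 5 counts in vehicle and 4, 0 and 0 in propyzamide. The ratio of rates was 0.213, and its exact 95% limits for counting error were 0.0501 and 0.704. Cxcl9 had 4 and 6 counts in vehicle and 0, 0 and 5 in propyzamide, so that its groups overlapped. Cxcl10 overlaps Art3 on the opposite strand, which had 147 counts over all libraries against 16 for Cxcl10.

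Among the further effectors, 0 of 7 tested passed the test and 6 of the 7 had negative fold changes. Samd9l, an antiviral inhibitor of translation (chromosome 6, 3372257 to 3399572), was the exception, at 19.4 and 27.8 CPM in vehicle and 30.6, 47.7 and 38.4 CPM in propyzamide. The propyzamide libraries all lay above vehicle, with a log2 fold change of 0.72 ± 0.39 (SE; edgeR adjusted p = 0.354), or 0.46 without vehicle replicate 1. Rtp4, a chaperone of receptor transport induced by type I interferon (chromosome 16, 23520291 to 23614222), was at 13.6 and 3.40 CPM in vehicle and 2.72, 5.65 and 1.83 CPM in propyzamide. Vehicle replicate 1 alone stood high, and the log2 fold change of -1.34 ± 0.80 (SE; edgeR adjusted p = 0.411) shrank to -0.02 without it. Rtp4 overlaps Masp1 on the opposite strand, which had 52 counts over all libraries against 61 for Rtp4.

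Ifi35, an interferon-induced leucine zipper protein (chromosome 11, 101448407 to 101458698), had the highest level per length of this group. It was at 16.5 and 26.7 CPM in vehicle and 16.3, 17.5 and 18.3 CPM in propyzamide. The log2 fold change was -0.31 ± 0.42 (SE; edgeR adjusted p = 0.760) and became 0.12 without vehicle replicate 2. Parp14, a mono-ADP-ribosyltransferase, was tighter within groups, at 27.7 and 30.6 CPM in vehicle and 20.1, 20.02 and 17.0 CPM in propyzamide, with a log2 fold change of -0.61 ± 0.37 (SE; edgeR adjusted p = 0.421). The groups overlapped for the tested genes Rsad2 (viperin), Bst2 (tetherin) and Trim30a. Usp18, which removes Isg15 from proteins and damps the type I receptor, had 6 and 6 counts in vehicle and 7, 0 and 1 in propyzamide. In CPM its groups were separated only narrowly, with 2.38 CPM in propyzamide replicate 1 against 2.48 CPM in vehicle replicate 1.

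Background differed between the groups and touches the low genes. Olfactory and vomeronasal receptor genes, taken as a measure of background although a few are known in gut endocrine cells, held 0.499 and 0.434 CPM per kilobase in vehicle and 0.0270, 0.321 and 0.114 in propyzamide. For 27 of the 36 genes the higher of the group means was at least 5 times the level that the vehicle background gives for their length. The other 9 were Ifit2, Oas2, Gbp3, Gbp5, Iigp1, Cxcl9, Cxcl10, Rsad2 and Ifi44. With background counts subtracted, 0 of the 22 genes still tested passed the test. The part of background in the lower levels of the untested genes was not tested.

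**Figure D4:**
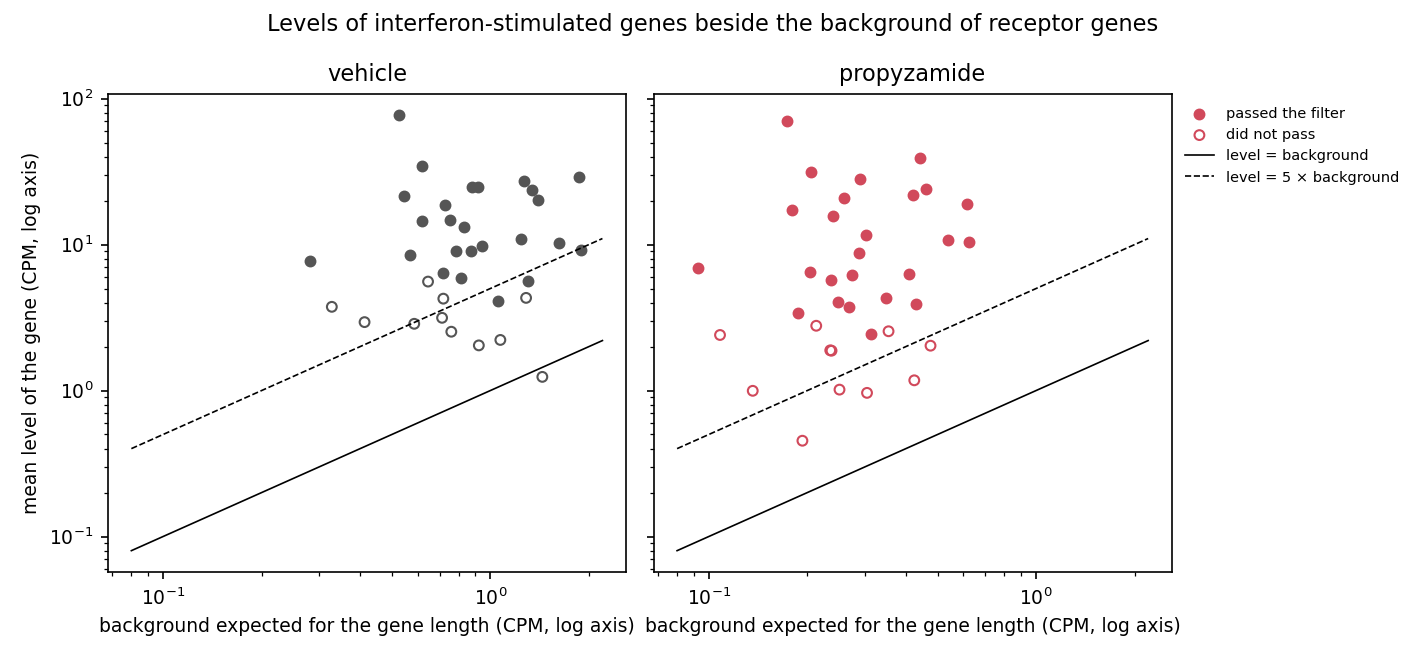
Mean CPM of each of the 36 genes (y axis, log) against the CPM expected from background for a gene of its length (x axis, log) in vehicle and propyzamide, with filled points for the 25 genes tested. The solid line marks equality and the dashed line 5 times background, and genes such as Gbp5 lie near the solid line in vehicle.

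The rest of the pathway was read from lists of 92 further genes, of which 56 were tested, 0 rose and 1 fell. Fold changes were positive for 21 of the 56 and negative for 35, where 50.9% of all tested genes were negative. The propyzamide libraries lay wholly above vehicle for 6 and wholly below for 19, against 16.7% and 20.8% of all tested genes. Over all tested genes, 0.690% were called higher and 1.21% lower. Interferon ligands were scarcely seen: 8 of 11 had 0 counts in every library and the other 3 had 1 or 2 counts in all. Ifng and Ifnb1 were among those at 0, which allows up to 0.718 CPM in vehicle and 0.459 CPM in propyzamide (3 counts over the group, counting error only). The gene that fell was Sp110, a nuclear body protein induced by interferon, at 22.7 and 31.8 CPM in vehicle and 3.40, 2.57 and 0.609 CPM in propyzamide. The log2 fold change was -3.51 ± 0.59 (SE), with an edgeR adjusted p of 0.0149. Sp110 no longer passed when vehicle replicate 1 (edgeR adjusted p = 0.111) or vehicle replicate 2 (0.172) was left out.

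Receptors and kinases were present at levels that did not pass the test in either direction. Ifngr1 was the highest in CPM, at 139 and 123 CPM in vehicle and 99.6, 173 and 107 CPM in propyzamide. The log2 fold changes were -0.05 for Ifngr1, -0.45 for Ifngr2, -0.41 for Ifnar1 and -0.35 for Ifnar2, with edgeR adjusted p of 0.549 to 0.962. For the kinases they were 0.21 for Jak1, 0.02 for Tyk2 and 0.96 for Jak2 (edgeR adjusted p = 0.274 for Jak2). Jak2 was at 13.6 and 14.8 CPM in vehicle and 27.5, 37.5 and 17.7 CPM in propyzamide.

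Socs1, the feedback inhibitor of both receptors, was at 9.10 and 7.38 CPM in vehicle and 1.02, 1.54 and 4.87 CPM in propyzamide (log2 fold change -1.79 ± 0.83 (SE), edgeR adjusted p = 0.278). Ciita, the gamma-induced master regulator of MHC class II, was not tested, at 7.44 and 5.11 CPM in vehicle and 1.36, 0.513 and 1.22 CPM in propyzamide. Further genes were picked out after their values were seen, and none of them passed the test. The picks do not stand for the lists: of the 56 tested pathway genes, 6 lay wholly above vehicle and 19 wholly below. Dhx58, which encodes LGP2, a sensor of the RIG-I family, was at 9.93 and 5.67 CPM in vehicle and 1.02, 1.03 and 0.609 CPM in propyzamide (edgeR adjusted p = 0.0848). Trim25, a ubiquitin ligase that acts on RIG-I, lay higher in every propyzamide library (log2 fold change 1.11, edgeR adjusted p = 0.121). So did the membrane restriction factors Ifitm2 and Ifitm3, at 1.32 and 1.18 (edgeR adjusted p = 0.138 and 0.153). These 3 were the only genes wholly above vehicle among the 22 tested of their list, further genes induced by type I interferon. In that list 9 tested genes lay wholly below vehicle, Sp110 among them. Over all tested genes, 16.7% lay wholly above vehicle and 20.8% wholly below.

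Markers of the cells that make or answer interferon varied along with the libraries. T and NK cell markers, with 0 of 12 tested, summed to 9.93 and 12.5 CPM in vehicle and 1.70, 4.62 and 1.83 CPM in propyzamide. The background expected for these 12 genes came to 8.54 and 7.43 CPM in vehicle and to 0.462, 5.50 and 1.95 CPM in propyzamide, and 0 of the 12 stood 5 times above it. Klrd1 was at 0 in all 5 libraries and Cd3e in the 3 propyzamide libraries. Dendritic cell markers summed to 75.3 and 85.1 CPM in vehicle and 31.7 to 51.8 CPM in propyzamide, with Siglech of plasmacytoid cells at 2.89 and 5.67 CPM in vehicle and 0 in propyzamide. Only 4 of these 9 markers stood 5 times above background, which came to 10.6 and 9.19 CPM in vehicle and 0.572, 6.81 and 2.41 CPM in propyzamide. In propyzamide 6, 4 and 7 of the 9 were at 0, so few genes carried the sums. Of the 5 tested, 4 had negative and 1 a positive fold change. Macrophage and monocyte markers summed to 109 and 90.8 CPM in vehicle and 48.3, 157 and 294 CPM in propyzamide, with 6 of 10 tested. Lyz2 made up the larger share of that sum, at 61.6 and 46.5 CPM in vehicle and 25.5, 107 and 181 CPM in propyzamide. Cx3cr1 lay the other way, at 7.44 and 5.67 CPM in vehicle and 0.680, 0 and 0 CPM in propyzamide, and Ly6c2 and Cd68 were also lower in every propyzamide library. The part of these cells in the levels of the 36 genes was not tested.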

How the data were processed

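Trizol extracts of frozen colon were turned into libraries by SMART-Seq2, per the labels' protocols. For each library the authors deposited an RSEM output that lists every transcript's expected count, TPM, FPKM and isoform percent, per the file headers. Expected counts and TPM were used here, and the FPKM and isoform percent columns, as deposited, were not. The submitters' processing notes name RSEM, kallisto and GRCm38, with neither version nor role. The sources used here do not give strand use or the annotation release, and RSEM divides reads among similar transcripts.

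Expected counts and TPM of 142647 transcripts were summed to 55471 genes, and count sums were rounded. Positions came from GENCODE M21 (99.6% of genes matched) and symbols from the reference tables (99.4%). Genes were tested with edgeR 4.0.16 in R 4.3.3 (filterByExpr, TMM, quasi-likelihood, group as the only term, Benjamini-Hochberg, threshold 0.05). SE is the size of the log2 fold change divided by the square root of F. DESeq2 1.42.0 and limma 3.58.1 on log2 TPM served as alternatives, beside other scalings, filters, background subtraction from 1974 receptor genes, a replicate block and each library left out, 15 in all. In a test on simulated data, 200 of 12024 genes were changed, and 4.35% of the calls were false. Chi-square per degree of freedom between libraries was 16.0 to 48.1, so none was a duplicate. These reads carry no molecular identifiers, so intervals and floors cover counting error only.

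The members and lists were chosen with earlier results of these data known. In each role group, members past the threshold, the 2 of smallest p and the 1 of highest mean TPM were given in full. The result for 1 pathway gene is not reported here. A planned search for a nucleotide-binding motif in the GTPase proteins was not run, since protein sequences were not used here.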

Additional observations from a re-analysis of the deposited data

How the results depend on the processing

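None of the 36 genes was called higher under any of the 15 alternatives, and 1, Ddx58, was called lower under 1 of them, limma on log2(TPM + 1). Over all genes the 229 calls became 362 with rRNA-like and mitochondrial genes removed, 1327 with no filter, 148 with at least 10 CPM in 2 libraries, 401 with DESeq2, 490 with limma on log2(TPM + 1), 141 with background subtracted, and 36 to 499 as each library was left out. The share of calls that were lower was 63.8%, and it was 74.8% with upper-quartile scaling, 86.5% and 85.6% with limma at pseudocounts of 1 and 0.1, 46.6% with DESeq2 and 36.4% without vehicle replicate 2. The median of all genes moved from -0.02 to -0.14 with upper-quartile scaling, -0.39 and -0.47 with limma, -1.14 with no filter and -1.26 with DESeq2.

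The fold change of Oas1a turned to -0.20 with limma at either pseudocount and ran from -0.043 to 0.494 as each library was left out. In the same way Ifit1 ran from -1.70 to 0.0923 (its highest without vehicle replicate 1), Irf1 from -0.320 to 0.0846 and Ifi35 from -0.642 to 0.121 (their highest without vehicle replicate 2). Rtp4 ran from -1.93 to -0.0209 and Irgm1 from -1.11 to -0.0052. The cause of these changes was not tested. The type I minus GTPase difference of medians was negative under all alternatives, from -0.88 to -0.21. It rested on 2 to 8 type I effectors and 5 to 8 GTPases, depending on the setting. All alternatives reuse the same libraries, in which the groups overlapped in mean log2(CPM + 1) of one list minus the other. With only the 250 bases before the start, 16 in place of 19 genes held the response-element core and 9 in place of 10 the gamma-site core. With the replicate block there were 639 calls over all genes, of which 49.3% were lower, and 0 among the 36, and Irgm1 was at -1.13. Libraries with the same number correlated at 0.171 and 0.148 in their deviations from the group means. With 2 vehicle libraries these deviations mirror each other, so the crossed pairs were fixed at -0.171 and -0.148. The values cannot show whether the numbers pair libraries, and the labels give the number no meaning. Low counts limit the 11 untested genes most.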
